A study of Mus musculus with 6 samples.

Results

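The genes described here encode the enzymes and carriers that bring pyruvate and lactate into oxidation, turn the tricarboxylic acid (TCA) cycle and link it to neighbouring pathways. They were chosen by gene name, 31 of the 22416 genes in the deposited table, and all 31 were present and tested. Ribosome footprints, the mRNA fragments that a translating ribosome shields from nuclease, had been sequenced from mouse oocytes by Ribo-lite, a ribosome profiling method for few cells. There were 6 libraries of 500 oocytes each, 2 per group, all of WT genotype and labelled as ovary tissue and oocyte cell type. WT_FGO were fully grown control oocytes at the germinal vesicle (GV) stage, before meiosis resumes. WT_MII were control oocytes at metaphase II (MII), after maturation in culture. Treat_MII were MII oocytes whose label says only that they were treated. In the study the agent was BYBX, a ligand that stabilizes folded G-rich RNA (RNA G-quadruplexes, rG4s), and the control received the solvent DMSO. The paper reports that BYBX lowered the rate of polar body emission and that treated oocytes reaching MII had abnormal spindles. Treatment and such differences in meiotic progress cannot be told apart in these libraries. In the study's methods, the donors were 4-week-old females given 5 IU of PMSG, a gonadotropin that stimulates follicle growth, 44 h before collection. A library pools oocytes, and no source used here says which animals gave the oocytes of which library, so the p-values below measure the spread between libraries, which may be technical.

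Pyruvate is the main fuel of the mouse oocyte, which uses glucose poorly and receives pyruvate from the surrounding cumulus cells. Lactate dehydrogenase interconverts lactate and pyruvate, the mitochondrial pyruvate carrier brings pyruvate into mitochondria, and the pyruvate dehydrogenase complex makes acetyl-CoA from it unless pyruvate dehydrogenase kinases switch the complex off. Citrate synthase joins acetyl-CoA to oxaloacetate, and the cycle then passes through isocitrate, 2-oxoglutarate, succinyl-CoA, succinate, fumarate and malate back to oxaloacetate. The comparisons asked how the footprint levels of these genes differed between GV and MII oocytes, and between MII oocytes matured with and without the ligand. Footprint levels were not divided by mRNA levels, so the amount of an mRNA and its ribosome load cannot be told apart here. The paper reports substantial loss of maternal mRNA between GV and MII, and higher transcript levels in BYBX-treated than in control MII oocytes.

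Levels are given in FPKM, footprints scaled to the length of the coding sequence and to the reads of the library, so they may be compared between genes and are relative within a library. Whole reads could be recovered from them, with library totals of 94309 and 107251 reads in WT_FGO, 164972 and 230907 in WT_MII, and 331304 and 275604 in Treat_MII. A single read in 1 kb of coding sequence was worth 10.6 and 9.32 FPKM in WT_FGO but 3.02 and 3.63 FPKM in Treat_MII, so depth differed between the groups. The members together had 906 and 1039 reads in WT_FGO, 822 and 1264 in WT_MII, and 2480 and 2077 in Treat_MII. Without Ldhb these sums were 225, 312, 183, 274, 502 and 406 reads, in the same order, and between 7 and 15 of the 31 members lay at or under 3 reads in each library. Oocyte markers were high in every library, with 10 genes summing to 58119 and 39695 FPKM in WT_FGO, 8358 and 8435 in WT_MII, and 16009 and 16489 in Treat_MII, and only Figla was at 0 in some libraries. WT_FGO_2 stood apart by cumulus or granulosa cell genes, the 13 of which summed to 1231 FPKM there and to between 127.8 and 273.8 FPKM in the other libraries. The inhibin subunit gene Inha was at 747.3 FPKM in WT_FGO_2 and at 29 in WT_FGO_1. Cyp11a1, Inhba and Fshr were at 66.3, 139.3 and 13.5 FPKM in WT_FGO_2 and at 0 in WT_FGO_1. Amh, Foxl2 and Star were also higher in WT_FGO_2 than in WT_FGO_1. Other genes of the list did not follow. Cyp19a1 was at 24.7 FPKM in WT_FGO_2 and at 35.1 in WT_FGO_1. Kitl was at 0 in WT_FGO_2, 11.3 in WT_FGO_1 and 167.8 in WT_MII_1. Nr5a2 was at 0 in both WT_FGO libraries, and Tnfaip6 was at 0 in all libraries. In such pools, fewer cells of a type and less RNA per cell cannot be told apart.

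Because the ligand acts on rG4s, the stretches of these mRNAs that match a G-quadruplex motif are shown first. The motif was 4 runs of at least 3 G, joined by loops of 1 to 7 bases of any kind, read on the sense strand of the longest coding transcript (GENCODE release 21, GRCm38). It was found in the 5′-UTR of 3 of the 31 members (9.68%, against 6.97% of 14827 tested genes), in the coding sequence of 1 (3.23%, against 4.53%) and in the 3′-UTR of none (0 of 31, against 10.5%). The 4 members were Idh1 (chr1:65179140-65179161, minus strand), Idh3a (chr9:54586441-54586460, plus strand) and Ldha (chr7:46847082-46847104, plus strand) in the 5′-UTR, and Dlat (chr9:50659400-50659423, minus strand) in the coding sequence. Capitals mark the G runs. A loop could itself be a G. In Ldha the last unbroken stretch of G was counted as separate runs with a G loop between them. It therefore shows fewer than 4 separate runs and meets the motif only in this wide sense.
Idh1 5′-UTR: GGGcGGGGcttcGGGaggtGGG
Idh3a 5′-UTR: GGGcGGGcttGGGaagaGGG
Ldha 5′-UTR: GGGttcttgcGGGGGtGGGGGGG
Dlat coding sequence: GGGatGGGttcaGGGctcggtGGG
A match is a description of the sequence and not a measured rG4. Most members thus had no such stretch in any part of the transcript.

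**Figure D1:**
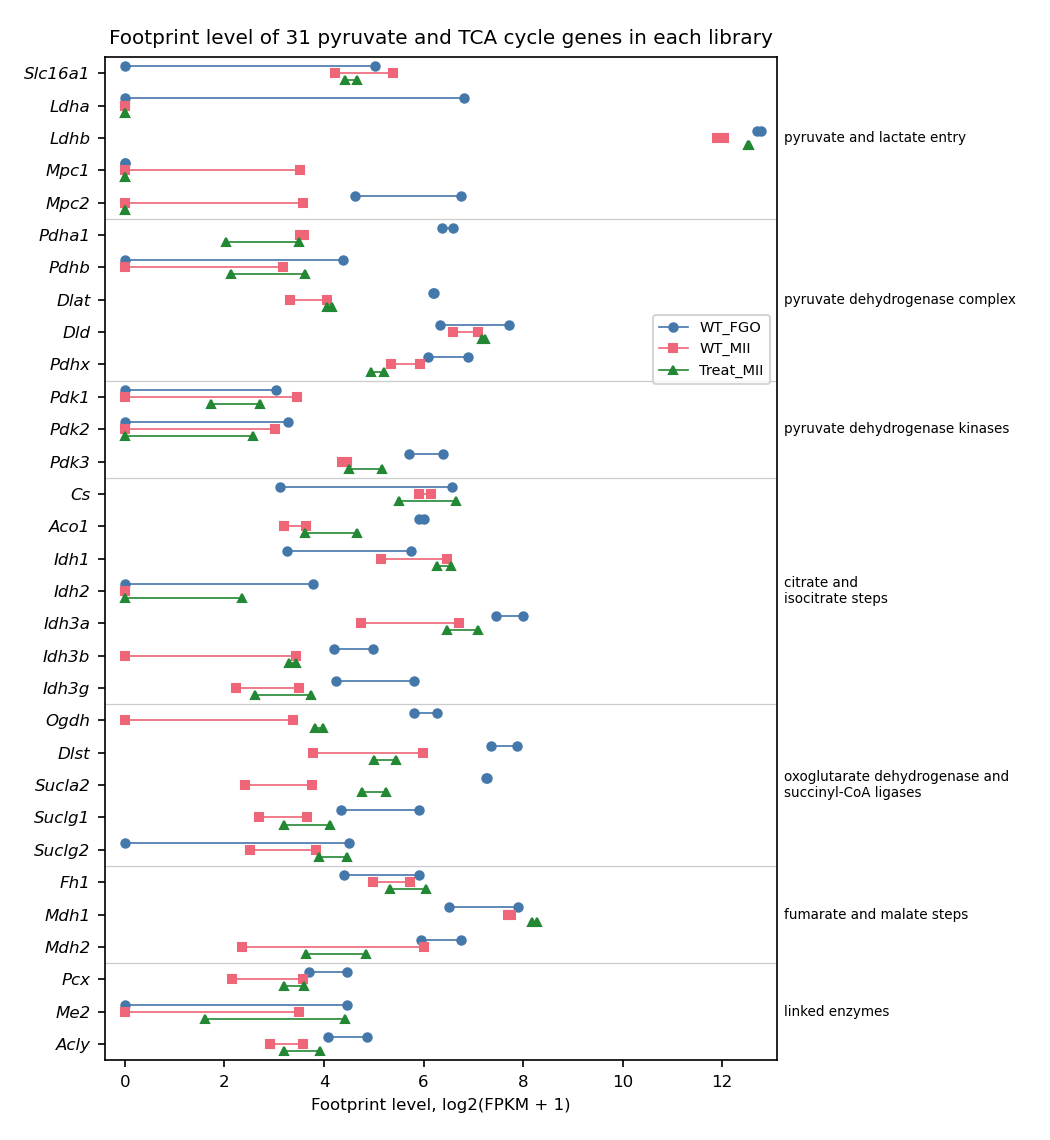
Footprint level of each of the 31 genes, as log2(FPKM + 1) on the horizontal axis, with 1 point per library and a line joining the 2 libraries of a group; genes are ordered by their step in metabolism. Ldhb lay far to the right of all others, and the WT_FGO points of Sucla2, Dlat, Aco1 and Pdha1 lay to the right of both MII groups.

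Ldhb, which encodes the heart-type subunit of lactate dehydrogenase, dominated the set. Its level was 7059 and 6626 FPKM in WT_FGO, 3786 and 4191 in WT_MII, and 5836 and 5927 in Treat_MII. The 3 groups did not overlap: by deposited FPKM, GV oocytes were highest, control MII oocytes lowest and treated MII oocytes between them. Ldhb took between 70.0% and 80.5% of the members' reads in each library and ranked between 7 and 25 among all genes. Mdh1, the next member by mean level, had a mean of 224.7 FPKM over the 6 libraries against 5571 for Ldhb. The level of Ldhb fell at maturation by 0.78 ± 0.13 (SE) on the log2(FPKM + 1) scale (limma, adjusted p = 0.0272). Its share of all library reads was 0.722% (95% exact Clopper-Pearson interval 0.669 to 0.778) and 0.678% (0.63 to 0.729) in WT_FGO, and 0.387% (0.358 to 0.419) and 0.429% (0.403 to 0.456) in WT_MII. The other 30 members together took 0.239% and 0.291% of the reads in WT_FGO and 0.111% and 0.119% in WT_MII. Intervals cover counting error only, because reads copied by PCR from 1 molecule are not independent. The fall of Ldhb depended on the scaling: centring the libraries on the median gene gave -0.27 (adjusted p = 0.494), and the call was lost when any 1 of the 6 libraries was left out (adjusted p from 0.0998 to 0.35), with only the compared groups fitted (0.517) and without the trend (0.473). Of the 28-base words in its coding sequence, 57.8% also occurred in Gm5514, so reads of the pair may not be separable.

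**Figure D2:**
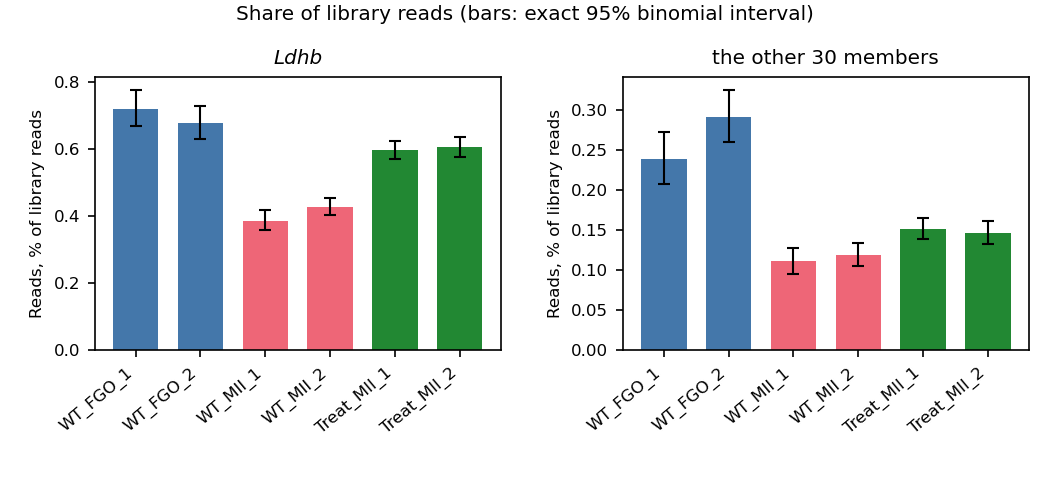
Reads of Ldhb (left) and of the other 30 genes together (right), in percent of the reads of each library, with 95% exact binomial intervals; each bar is 1 library, coloured by group, and the vertical scales differ. In both panels WT_FGO was highest, WT_MII lowest and Treat_MII between them.

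The coding lengths behind the FPKM of Ldhb and Mdh1 ran past the usual stop codon. Reads came out whole for a coding length of 1023 bases in Ldhb and 1065 in Mdh1, where GENCODE gives 1002 for each. The additional 21 and 63 bases equal the distance from the stop codon to the next stop in frame, and both genes are known for translational readthrough, in which some ribosomes pass the stop codon and make a longer protein that enters peroxisomes. The stop codons with the bases that follow them are shown for this reason, with the stop codon in capitals (GRCm38; Ldhb chr6:142490413-142490439 and Mdh1 chr11:21557419-21557445, both minus strand).
Ldhb: TGActgccagtctctaggctgtagaac
Mdh1: TGActagacactcgttttgacatcagc
For Idh3b, with 15 reads in all, the length that gave whole reads was also longer than in GENCODE, by 75 bases, which does not equal the 81 bases to its next stop in frame. The FPKM give 1 value per gene, so the reads within the extension were not measured apart.

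At maturation, 2 of the 31 members passed the test, Ldhb and Sucla2, and both fell. This was 6.45% of the members, where 3.09% of the 15129 tested genes were called lower. No member was called higher (3.67% of all tested genes). An unadjusted p under 0.05 (limma) was reached by 0 of the 31 members higher and 10 lower. Of all 15129 tested genes, 1459 higher and 1983 lower reached it. Both WT_MII libraries lay below both WT_FGO libraries for 16 members (51.6%), and the reverse held for none, where 25.8% and 15.3% of all tested genes did so. By the ratio of mean FPKM + 1, 18 members were past 2-fold lower (58.1%) and 1 past 2-fold higher (3.23%), against 41.8% and 23.6% of all tested genes. The median change was -1.23 over the members and -0.44 over all tested genes. Among the 12 members with at least 60 reads in all, 7 (58.3%) lay lower without overlap and the median change was -0.82. Over all 2743 such genes 34.3% lay lower and the median was 0.23. This filter sums reads over libraries of unequal depth, so genes high in the deeper MII libraries passed it more easily. Pdha1 and Dlat, highest in WT_FGO, had 31 and 56 reads and did not pass. Without WT_FGO_2, the library with the high Inha level, the median of the members was -1.15. There 19 members lay lower and 6 higher, against 40.4% and 23.5% of all tested genes. Without WT_FGO_1 the median was -1.73 over the members and -0.43 over all tested genes. There 24 members lay lower (77.4%, against 47.3% of all tested genes), and the change of Ldha was -6.82. The direction of the fitted change turned under at least 1 alternative for 10 of the 31 members. With either Treat_MII library left out, no gene at all was called at maturation. Without WT_MII_1 the changes of Sucla2, Dlat, Dlst and Ogdh were -3.52, -2.87, -3.84 and -6.04. Without WT_MII_2 they were -4.85, -2.13, -1.63 and -2.66, and that of Mpc1 was 3.51, on a single read.

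**Figure D3:**
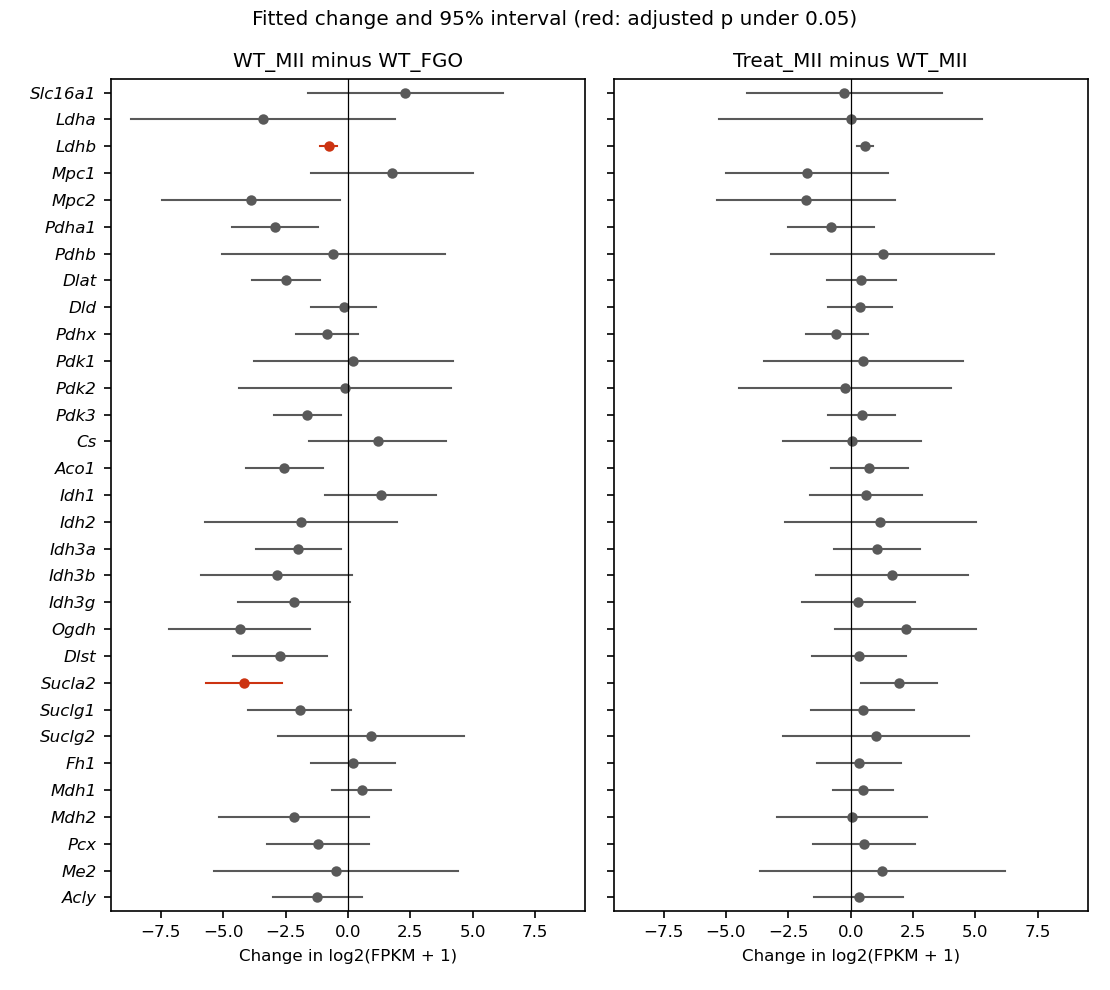
Fitted change in log2(FPKM + 1) of each gene (point) with its 95% interval (line), at maturation (WT_MII minus WT_FGO, left) and with treatment (Treat_MII minus WT_MII, right); red marks an adjusted p under 0.05. At maturation most points lay left of 0, with Ldhb and Sucla2 called; with treatment 24 of 31 lay right of 0 and none was called.

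None of the 5 members of the pyruvate dehydrogenase complex passed the test at maturation, and all 5 had fitted changes below 0, 3 of them lower without overlap, while the signs of Dld and Pdhb turned when WT_FGO_1 or WT_MII_1 was left out (to 0.52 and 0.08 for Dld, 1.59 and 0.99 for Pdhb). Pdha1, the catalytic E1 alpha subunit on the X chromosome (chrX:160122209-160138413, GRCm38), was at 81.6 and 95.6 FPKM in WT_FGO, 10.4 and 11.1 in WT_MII, and 10.3 and 3.1 in Treat_MII. Dlat, the E2 acetyltransferase that carries the coding sequence motif shown above, was at 71.6 and 72.6 FPKM in WT_FGO, 15.7 and 8.99 in WT_MII, and 15.7 and 17.0 in Treat_MII. For both genes the GV libraries agreed closely and lay above all 4 MII libraries, with maturation changes of -2.93 ± 0.71 (SE; limma, adjusted p = 0.0683) for Pdha1 and -2.50 ± 0.56 (adjusted p = 0.0566) for Dlat. Dld, the E3 dehydrogenase that the complex shares with the oxoglutarate dehydrogenase complex and the glycine cleavage system, was at 208.3 and 79.4 FPKM in WT_FGO, 95.3 and 136.1 in WT_MII, and 144.3 and 149.7 in Treat_MII. Its GV libraries enclosed all MII libraries, and the fitted change at maturation was -0.17 (95% interval -1.47 to 1.12), or 0.33 with median centring. Pdhx, which anchors E3 to the E2 core, was at 118.4 and 67.4 FPKM in WT_FGO, 39.8 and 59.8 in WT_MII, and 29.7 and 35.8 in Treat_MII. Its 3 groups did not overlap in falling order, with a maturation change of -0.86 ± 0.51 (SE; limma, adjusted p = 0.422). Pdhb, the E1 beta partner of Pdha1, had between 0 and 4 reads in each library, at most 19.7 FPKM, and shared 62.4% of its coding words with Gm6123. Dld exceeded Dlat in 6 of 6 libraries, by 1.09- to 15.1-fold.

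Of the kinases that inactivate this complex, Pdk3 had the highest level in 6 of 6 libraries. It was at 51.1 and 82.4 FPKM in WT_FGO, 19.5 and 20.9 in WT_MII, and 21.8 and 35 in Treat_MII. Both MII groups lay below the GV libraries, with a maturation change of -1.64 ± 0.55 (SE; limma, adjusted p = 0.144). Pdk1 and Pdk2 had 7 and 5 reads over all 6 libraries together, too few for a direction to be read.

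**Figure D4:**
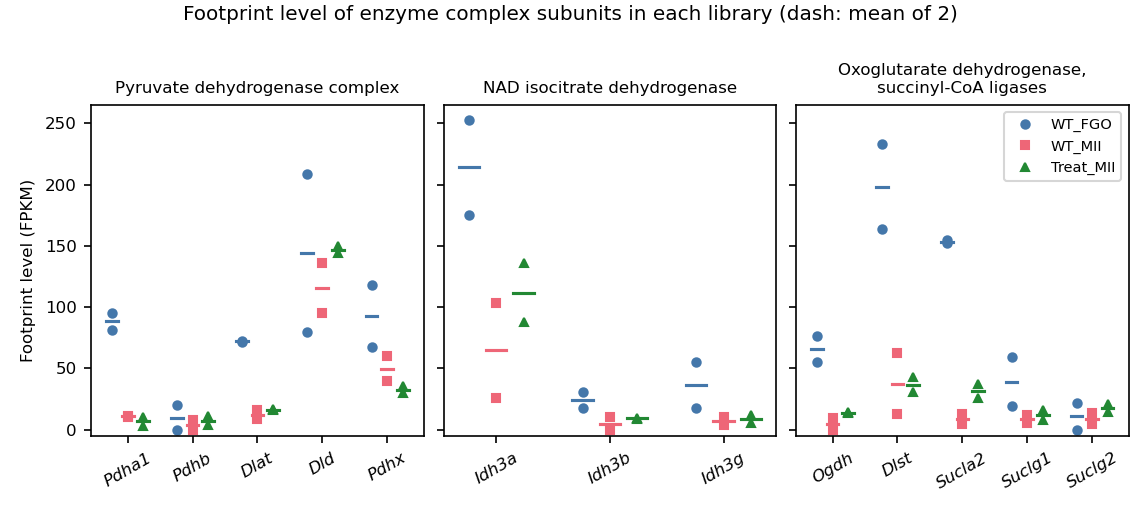
Footprint level in FPKM of the subunits of the pyruvate dehydrogenase complex (left), the NAD-dependent isocitrate dehydrogenase (middle), and the oxoglutarate dehydrogenase and succinyl-CoA ligases (right); each point is 1 library and each dash the mean of 2. Pdha1, Dlat, Ogdh, Dlst and Sucla2 were highest in WT_FGO without overlap, while the groups of Dld overlapped.

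The mRNAs of the citrate and isocitrate steps differed among themselves. Cs, citrate synthase, was at 7.62 and 93.8 FPKM in WT_FGO, 69.7 and 59.1 in WT_MII, and 99.7 and 44.3 in Treat_MII. It shared 20.8% of its coding words with other genes. The low GV value rested on 1 read, and the fitted change of 1.19 (adjusted p = 0.541) at maturation had an interval from -1.57 to 3.94 and was -0.54 without WT_FGO_1. Aco1, the cytosolic aconitase that is also iron regulatory protein 1, was at 63.6 and 59.4 FPKM in WT_FGO, 11.4 and 8.12 in WT_MII, and 11.3 and 24.5 in Treat_MII. The GV libraries lay above all others, with a maturation change of -2.56 ± 0.63 (SE; limma, adjusted p = 0.0708). Idh1, the cytosolic NADP-dependent isocitrate dehydrogenase, was at 8.54 and 52.6 FPKM in WT_FGO, 34.2 and 87.2 in WT_MII, and 92.3 and 76 in Treat_MII. From GV to treated MII oocytes the fitted change was 1.91 ± 0.92 (SE; limma, adjusted p = 0.322), and the lower GV value was again 1 read. Its mitochondrial counterpart Idh2 had 4 reads over all 6 libraries and lay below Idh1 in each of them.

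The NAD-dependent isocitrate dehydrogenase of the cycle is built from the catalytic subunit encoded by Idh3a and from those encoded by Idh3b and Idh3g. Idh3a was at 253.1 and 174.9 FPKM in WT_FGO, 25.8 and 103.4 in WT_MII, and 87.5 and 136.1 in Treat_MII. Idh3b was at 17.3 and 30.5 FPKM in WT_FGO, 9.9 and 0 in WT_MII, and 9.86 and 8.89 in Treat_MII. Idh3g was at 18 and 55.4 FPKM in WT_FGO, 10.3 and 3.67 in WT_MII, and 5.12 and 12.3 in Treat_MII. All 3 were lower in WT_MII than in WT_FGO without overlap, with maturation changes of -2.86 for Idh3b and -2.17 for Idh3g, a 95% interval from -3.70 to -0.30 for Idh3a, and adjusted p from 0.157 to 0.245 (limma). Per length, Idh3a exceeded both partners in 6 of 6 libraries, by 2.51- to 28.1-fold over Idh3g. The mean levels of Idh3b and Idh3g rested on at most 7 reads in a library.

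Ogdh, Sucla2 and Dlst had the most negative maturation changes among the members with at least 60 reads. These 3 genes encode subunits of the oxoglutarate dehydrogenase complex and of the ADP-forming succinyl-CoA ligase. On fewer reads, Mpc2, Ldha, Pdha1 and Idh3b had changes of -3.90, -3.41, -2.93 and -2.86, also below that of Dlst. Sucla2, the ADP-specific beta subunit of succinyl-CoA ligase (chr14:73525319-73596142, plus strand), was at 152.7 and 154.4 FPKM in WT_FGO, 4.36 and 12.5 in WT_MII, and 36.9 and 26.1 in Treat_MII. The 3 groups did not overlap, with GV oocytes highest and control MII oocytes lowest, on 20 and 23 reads in WT_FGO, 1 and 4 in WT_MII, and 17 and 10 in Treat_MII. It fell at maturation by 4.18 ± 0.62 (SE) on the log2(FPKM + 1) scale (limma, adjusted p = 0.018), and as a share of library reads WT_MII had 0.0592 times the WT_FGO value (95% exact interval 0.0183 to 0.149, counting error only). The size was between -4.85 and -3.52 under every alternative, but the call was lost when either WT_FGO or either Treat_MII library was left out (adjusted p from 0.0835 to 0.118), with only the compared groups fitted (0.156) and without the trend (0.0614). Ogdh, the E1 subunit of the oxoglutarate dehydrogenase complex, was at 76.1 and 55.3 FPKM in WT_FGO, 9.46 and 0 in WT_MII, and 13.2 and 14.7 in Treat_MII. Dlst, its E2 succinyltransferase, was at 163.5 and 232.8 FPKM in WT_FGO, 62.3 and 12.7 in WT_MII, and 31 and 42.6 in Treat_MII. Both were highest in WT_FGO without overlap, with maturation changes of -4.35 ± 1.16 (SE; limma, adjusted p = 0.0867) and -2.73 ± 0.77 (adjusted p = 0.0991), and the size for Ogdh depends on the library at 0.

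The other subunits of succinyl-CoA ligase were lower in level and less clear in direction. Suclg1, the alpha subunit common to the ADP- and GTP-forming enzymes, was at 19.2 and 59 FPKM in WT_FGO, 5.48 and 11.7 in WT_MII, and 8.18 and 16.4 in Treat_MII. Suclg2, the GTP-specific beta subunit, was at 0 and 21.5 FPKM in WT_FGO, 4.67 and 13.3 in WT_MII, and 20.9 and 14 in Treat_MII, and shared 74% of its coding words with Gm15163. Suclg1 was lower in WT_MII than in WT_FGO without overlap (-1.94 ± 0.85, SE; limma, adjusted p = 0.249), and the groups of Suclg2 overlapped. Sucla2 stood above Suclg2 in both WT_FGO libraries and in both Treat_MII libraries, and the pair had equal reads in each WT_MII library, 1 and 4. The 5 genes of this step summed to 411.4 and 522.9 FPKM in WT_FGO, 86.3 and 50.3 in WT_MII, and 110.2 and 113.8 in Treat_MII.

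The fumarate and malate steps were the only group of members whose summed level overlapped between WT_FGO and WT_MII, and no gene of it was called. Mdh1, the cytosolic malate dehydrogenase of the malate-aspartate shuttle (chr11:21556787-21572367, minus strand), was at 89.6 and 236.4 FPKM in WT_FGO, 216.3 and 207.4 in WT_MII, and 308.9 and 289.6 in Treat_MII. Its treated libraries lay above all others, with a maturation change of 0.54 ± 0.49 (SE; limma, adjusted p = 0.527) and a change of 1.03 ± 0.49 (adjusted p = 0.314) from GV to treated MII oocytes. The maturation change rested on the GV libraries, at -0.16 (adjusted p = 0.498) without WT_FGO_1 and 1.23 (adjusted p = 0.0282) without WT_FGO_2, and the change to treated oocytes was then 0.34 (adjusted p = 0.228) and 1.73 (adjusted p = 0.0153). Mdh2, the mitochondrial enzyme that closes the cycle, was at 60.8 and 106.9 FPKM in WT_FGO, 63.7 and 4.14 in WT_MII, and 11.5 and 27.7 in Treat_MII. The groups of Mdh2 overlapped at maturation (-2.16 ± 1.23, SE; limma, adjusted p = 0.396). Mdh1 exceeded Mdh2 in every library, by 1.47- and 2.21-fold in WT_FGO, 3.4- and 50.1-fold in WT_MII, and 26.8- and 10.4-fold in Treat_MII. Mdh2 had 1 and 4 reads in WT_MII_2 and Treat_MII_1, where the ratio was highest. Fh1, fumarase, was at 20.1 and 59 FPKM in WT_FGO, 30.7 and 52 in WT_MII, and 64.9 and 39 in Treat_MII, with overlapping groups. The 3 genes together summed to 170.5 and 402.2 FPKM in WT_FGO, 310.6 and 263.6 in WT_MII, and 385.4 and 356.3 in Treat_MII.

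Apart from Ldhb, the genes of pyruvate and lactate entry had few footprints. Ldha, the muscle-type lactate dehydrogenase subunit, had 13 reads (111.9 FPKM) in WT_FGO_2 and none in the other 5 libraries. This is the library with the high Inha level described above, and the part of granulosa cell transcripts in the Ldha value was not tested. Of the Ldha coding words, 61.9% also occurred in other genes, 31 in all. Slc16a1, the monocarboxylate transporter MCT1, was at 0 and 31.5 FPKM in WT_FGO, 41 and 17.6 in WT_MII, and 20.4 and 24.5 in Treat_MII, with overlapping groups. The pyruvate carrier subunit Mpc1 had a single read, in WT_MII_1, and shared 49.1% of its coding words with other genes. Its partner Mpc2 was at 107.4 and 23.6 FPKM in WT_FGO, 0 and 11 in WT_MII, and 0 in both Treat_MII libraries, on 6 reads in all. Among the linked enzymes, Pcx (pyruvate carboxylase) and Acly (ATP citrate lyase, which exports acetyl groups to the cytosol) lay lower in WT_MII than in WT_FGO without overlap, with changes of -1.22 (adjusted p = 0.49) and -1.23 (adjusted p = 0.425, limma). Me2, the mitochondrial malic enzyme, ranged from 0 to 21.1 FPKM with overlapping groups.

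In maturing oocytes, many silent mRNAs gain poly(A) tails and ribosomes through the cytoplasmic polyadenylation element (CPE), a U-rich motif near the 3′ end. The motif was searched as TTTTAT or TTTTAAT in the last 150 bases of the 3′-UTR on the sense strand, and 10 of the 30 members with a window of that length held it (33.3%, against 24.2% of 12938 tested genes). The matches are shown for the called gene Sucla2, for Pdha1, and for 4 members with at least 60 reads whose fitted change at maturation lay nearest to or above 0, with the motif in capitals (GRCm38).
Sucla2 (chr14:73595993-73596015, plus strand): acatcaTTTTAATtattacagga
Pdha1 (chrX:160122326-160122351, minus strand): tccaattttgTTTTATtgtatagtaa
Cs (chr10:128362456-128362479, plus strand): taataaatgtTTTTATtaacaatg
Fh1 (chr1:175600374-175600398, minus strand): ataaagtttaTTTTATaaaagaaaa
Idh1 (chr1:65158637-65158663, minus strand): aaactgttaaTTTTAATtaaaatgaag
Dld (chr12:31331293-31331319, minus strand): ttagtaatgtTTTTAATcttagtaaat
The motif began 144 and 133 bases from the transcript end in Sucla2 and Pdha1, the latter with 31 reads in all. It began 14, 15, 38 and 33 bases from the end in Cs, Fh1, Idh1 and Dld. The poly(A) signal, AATAAA or ATTAAA, began 23 and 26 bases from the end in Cs and Fh1, before the motif. In Sucla2, Pdha1 and Idh1 the signal began 19, 29 and 33 bases from the end, after the start of the motif. Dld had no such signal in the window. Whether any of these matches acts as a CPE was not tested. The matches not shown, in Idh3a, Pdk3, Ldha and Mpc1, began 121, 77, 118 and 10 bases from the end. The 6 shown were picked after their values were seen, so the contrast of distances is a description. The median change at maturation was -0.91 over the 10 members with a match and -1.22 over the 20 without. Over all tested genes it was 0 with a match (3134 genes) and -0.55 without (9804 genes). Over the members with at least 60 reads it was 0.014 with a match (6 genes) and -1.71 without (6 genes). Over all tested genes with at least 60 reads it was 1.45 (793 genes) and -0.20 (1659 genes). Cs, Fh1 and Idh1 had 15, 13 and 8 reads in WT_FGO and passed this filter through the MII libraries. The split of the filtered members thus depends in part on the filter.

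With treatment, no member passed the test in either direction, and neither did any other gene (0% of 15129 called higher and 0% lower by limma, with 575 and 306 genes at an unadjusted p under 0.05). The members with an unadjusted p under 0.05 were Ldhb and Sucla2, both at higher levels in Treat_MII. For Ldhb the difference was 0.56 ± 0.13 (SE; 95% interval 0.24 to 0.89; limma, adjusted p = 0.71), and its share of library reads was 0.387% and 0.429% in WT_MII and 0.597% (0.571 to 0.624) and 0.606% (0.578 to 0.636) in Treat_MII. For Sucla2 the difference was 1.92 ± 0.62 (SE; 95% interval 0.40 to 3.44; limma, adjusted p = 0.836), on 5 reads in WT_MII and 27 in Treat_MII. These were the same genes that passed the test at maturation, in the opposite direction, and both contrasts use the WT_MII libraries. The summed level of the 10 oocyte genes moved the same way, from 8358 and 8435 FPKM in WT_MII to 16009 and 16489 in Treat_MII, and its part in these values was not tested.

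Across the set, 24 members had a fitted difference above 0, 6 below and 1 at 0, with a median of 0.44, where the median of all tested genes was 0. The direction turned for 15 of the 31 members when some library was left out, among them Cs, Fh1, Idh1, Mdh2 and Dlst, and for none under the other alternatives. Both Treat_MII libraries lay above both WT_MII libraries for 7 members (22.6%, against 16.2% of all tested genes), and below them for 2 (6.45%, against 15.6%). The 7 were Ldhb, Sucla2, Ogdh, Dld, Suclg2, Mdh1 and Pdk3, and the 2 were Pdha1 and Pdhx. By the ratio of mean FPKM + 1, 3 members were past 2-fold higher and 2 past 2-fold lower, against 19.9% and 21.2% of all tested genes. The 3 were Sucla2, Ogdh and Idh2, and the 2 were the pyruvate carrier subunits Mpc1 and Mpc2, of which Idh2, Mpc1 and Mpc2 had at most 2 reads in any MII library. Of the 12 members with at least 60 reads, 11 lay above 0 with a median of 0.53, against a median of 0.057 over all such genes. Treat_MII had the most library reads, so this filter favoured genes high in that group. The members with a G-quadruplex motif in the 5′-UTR lay above or at 0: Idh1 at 0.61, Idh3a at 1.06 and Ldha, with no reads in either group, at 0. Their adjusted p were between 0.932 and 1 (limma), as was the p of Dlat (0.42, adjusted p = 0.989). Of the 28 members without a 5′-UTR motif, 22 also lay above 0, with a median of 0.43. Over all 1033 tested genes with a 5′-UTR motif the median was 0, with 458 above 0 and 514 below. With 2 libraries per group the 95% intervals were wide, from -2.51 to 0.95 for Pdha1 and from -1.81 to 0.68 for Pdhx, so equal levels were not shown.

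Against WT_FGO, 1 of the 31 members passed the test in Treat_MII oocytes. It was Pdha1, on 9 and 12 reads in WT_FGO and 4 and 1 in Treat_MII. Pdha1, at 81.6 and 95.6 FPKM in WT_FGO and at 10.3 and 3.1 in Treat_MII, fell by 3.71 ± 0.71 (SE) on the log2(FPKM + 1) scale (limma, adjusted p = 0.0491). This call was lost when either WT_FGO library, either WT_MII library or Treat_MII_2 was left out (adjusted p from 0.0901 to 0.13). It was also lost with a pseudocount of 0.1, no filter, median centring, quantile normalization, the replicate block, only the compared groups or no trend (adjusted p from 0.0532 to 0.119). The share of members called lower was 3.23% (0.998% of all tested genes), and none was called higher (2.86% of all tested genes). There were 17 members lower without overlap (54.8%, against 28.9% of all tested genes) and 2 higher, Idh1 and Mdh1 (6.45%, against 16.6%). The median was -0.91 over the members and -0.53 over all tested genes, and without WT_FGO_2 these were -0.67 and 0. Ldhb differed between GV and treated MII oocytes by -0.22 ± 0.13 (SE; 95% interval -0.54 to 0.11; limma, adjusted p = 0.457), and by 0.32 with median centring, so which of them is higher depends on the scaling. This contrast shares its libraries with both others and is no independent support for either.

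Other genes of these pathways were listed by function. Among 7 tested genes for succinate dehydrogenase and the remaining cycle enzymes, none passed the test in any contrast. Among 11 tested genes of pyruvate and lactate handling, 1 was called at maturation: Bsg, basigin, the chaperone that carries monocarboxylate transporters to the cell surface, was at 245.3 and 263.7 FPKM in WT_FGO, 41.6 and 29.7 in WT_MII, and 80.2 and 65.3 in Treat_MII, and fell by 2.82 on the log2(FPKM + 1) scale (limma, adjusted p = 0.0153). Its 3 groups stood in the same order as those of Ldhb and Sucla2, and the treatment difference was 1.02 (adjusted p = 0.843). Among 11 tested glycolysis genes, 1 was called at maturation: Pkm, pyruvate kinase, which makes pyruvate, was at 66.2 and 206.5 FPKM in WT_FGO, 0 and 4.92 in WT_MII, and 54.8 and 28.8 in Treat_MII, and fell by 5.60 on the log2(FPKM + 1) scale (limma, adjusted p = 0.0362). Its groups did not overlap, again with WT_MII lowest, and the treatment difference was 4.07 (limma, adjusted p = 0.714). Pkm had 11 and 39 reads in WT_FGO, 0 and 2 in WT_MII, and 32 and 14 in Treat_MII. Most of its GV reads thus came from WT_FGO_2, the library with the high Inha level. For Bsg and Pkm the results of the alternatives are not given, so these calls should not be read as firmer than those of the members. Gapdh and Pgk1 were listed at 0 in all 6 libraries. Sharing of coding words was counted only for the members, so these values do not show that footprints were absent. Among 10 tested genes of shuttles and anaplerosis none was called, and none of the genes in these lists was called with treatment or between WT_FGO and Treat_MII.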

How the data were processed

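The deposited values were FPKM, made by the authors for each library after trimming with cutadapt 1.14 and alignment with Bowtie2 2.2.2 and STAR 2.5.3a on mm10 (per the submitters' processing notes). The counting program, annotation, molecular identifiers and any spike-in scaling are not given in the sources used here, so a change in total footprints per oocyte would not show. Of repeated gene names (26 entries) the highest entry was kept. Multiplied by coding length (GENCODE release 21, or RefSeq where needed; GRCm38), FPKM gave whole reads within 0.02 for 97.4% of genes; 3 reads were taken as the floor. log2(FPKM + 1) was fitted for the 15129 genes whose mean reached 1 FPKM with limma 3.58.1 (R 4.3.3; lmFit, eBayes with trend), all 6 libraries together with no covariate, and p-values were adjusted by Benjamini-Hochberg over all of them and called under 0.05. Fold changes on this scale understate the change of low genes. Replicate numbers were not taken as pairs. Tested on simulated data, the fit also called unchanged genes, as a larger share of its calls than the threshold implies, so single calls need care. The members, lists, motifs and tests were chosen with earlier results of these data known. Values in every library are given for members called in any contrast, for the 10 with the highest mean and for fixed subunit or paralog pairs; members are grouped by step. Words of 28 bases shared between coding sequences mark reads that may not be separable.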

Additional observations from a re-analysis of the deposited data

How the results depend on the processing

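At maturation 2 members were called. The count was also 2 with a pseudocount of 0.1, without a filter, with quantile normalization and with the replicate number as a block, and 3 with precision weights. It was 5 of 27 where the mean had to reach 5 FPKM (644 of all 9522 genes tested were called lower) and 5 of 12 where 60 reads were required (515 of 2743), 1 with median centring (Sucla2), 0 with only the compared groups, 0 without the trend, and from 0 to 4 with a library left out. The median of the members was between -1.73 and -0.76 throughout. Median centring raised the median maturation change of all tested genes from -0.44 to -0.10 and moved the split of all calls from 555 higher and 468 lower to 701 and 298. With treatment the count of calls stayed 0 wherever both libraries of each compared group were kept. Without WT_MII_2 the change of Mpc1 was -3.51, on a single read. The treatment median was 0.53 with at least 60 reads and 0.33 to 0.48 with a library left out. Members higher without overlap with treatment were 13 to 16 with a library left out (41.9% to 51.6%, against 27% to 28.8% of all tested genes; chosen after seeing the data), where fewer samples raise both shares. Between WT_FGO and Treat_MII, 1 member was called, and 0 with a pseudocount of 0.1, no filter, median centring, quantile normalization, the replicate block, only the compared groups or no trend. It was 3 of 12 with at least 60 reads (420 of 2743 genes called lower) and 2 of 31 with precision weights (336 of 14745). Leaving a library out also changed the calls, except without Treat_MII_1. The median there was -0.41 with median centring, -0.52 with quantile normalization, and from -1.30 to -0.67 with a library left out. Where no construction of the alternative is named, the cause was not tested. Same-numbered libraries did not deviate together (correlations 0.0395, 0.0162 and 0.0175 over 2743 genes), so the block has no basis in the design; it left the treatment calls at 0. A read in 1 kb was worth 3.02 to 10.6 FPKM, so levels of members with few reads moved in steps of that size.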
